A study of Mus musculus with 9 samples.

Results

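The mitosis genes described here are 42 genes whose products carry a cell through chromosome condensation, spindle assembly, chromosome separation and cytokinesis. They were chosen by symbol, and every probe that the platform annotation gives to one of those symbols was taken. Of the 42 symbols, 40 had a probe named here, 73 probes in all, out of 19057 genes with a named probe on the array; Ccnb1 and Mki67 had none. They were read in FRCs (fibroblastic reticular cells, the stroma that forms the scaffold of lymph nodes) from brachial nodes of female C57BL/6 mice. There were 3 arrays of nodes draining a tumour at day 11, 3 of nodes draining a tumour at day 4 and 3 of nodes draining a PBS injection site. The FRCs of an animal's 2 brachial nodes were combined, and arrays were run in triplicate. The tumour line, the day of the PBS nodes and the way the FRCs were isolated are not given in the sources used here.

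Dividing cells make most of these transcripts late in the cycle, in G2 and M phase, and resting cells keep them low. Their promoters are known for 2 short elements. The CCAAT box binds the factor NF-Y, and the cell cycle genes homology region (CHR) binds the MuvB core, which acts with p130 and E2F4 in resting cells as the repressing DREAM complex and with B-Myb and FoxM1 in dividing cells as an activator. Lymph node FRCs are largely quiescent at rest and are known to divide when a draining node enlarges.

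The promoters of the tested genes with the lowest p for day 11 against PBS are shown so that these elements can be seen beside the genes, where present. The 6 windows are from RefSeq on build GRCm38.p6 and run from 250 bases before to 50 bases after the annotated start, 5′ to 3′ along the transcribed strand. Capitals mark the CCAAT core (CCAAT or, on the other strand, ATTGG) and the CHR core (TTTGAA or, on the other strand, TTCAAA). The windows are chr11:117848987-117849286 (plus strand) for Birc5, chr6:124829926-124830225 (plus) for Cdca3, chr7:127042371-127042670 (minus) for Kif22, chr4:124936868-124937167 (minus) for Cdca8, chr7:122159185-122159484 (plus) for Plk1 and chr2:172370521-172370820 (minus) for Aurka. Stmn1, which ranks between Plk1 and Aurka, is not in the sequence table.
Birc5: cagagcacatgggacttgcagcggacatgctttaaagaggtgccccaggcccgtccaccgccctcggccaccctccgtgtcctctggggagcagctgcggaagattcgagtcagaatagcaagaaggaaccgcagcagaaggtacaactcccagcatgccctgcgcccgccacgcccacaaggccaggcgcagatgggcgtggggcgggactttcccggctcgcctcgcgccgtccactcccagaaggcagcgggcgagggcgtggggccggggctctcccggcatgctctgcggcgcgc
Cdca3: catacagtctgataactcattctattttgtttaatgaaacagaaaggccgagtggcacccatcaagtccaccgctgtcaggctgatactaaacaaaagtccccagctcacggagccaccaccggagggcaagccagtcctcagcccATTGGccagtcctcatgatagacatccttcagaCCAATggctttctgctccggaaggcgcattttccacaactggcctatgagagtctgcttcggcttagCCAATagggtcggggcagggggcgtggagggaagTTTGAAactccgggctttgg
Kif22: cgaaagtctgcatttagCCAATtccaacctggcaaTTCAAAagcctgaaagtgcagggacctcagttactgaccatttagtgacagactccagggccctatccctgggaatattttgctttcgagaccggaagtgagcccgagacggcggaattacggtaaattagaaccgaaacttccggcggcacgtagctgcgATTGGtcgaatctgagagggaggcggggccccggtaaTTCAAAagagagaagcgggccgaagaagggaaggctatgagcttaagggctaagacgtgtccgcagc
Cdca8: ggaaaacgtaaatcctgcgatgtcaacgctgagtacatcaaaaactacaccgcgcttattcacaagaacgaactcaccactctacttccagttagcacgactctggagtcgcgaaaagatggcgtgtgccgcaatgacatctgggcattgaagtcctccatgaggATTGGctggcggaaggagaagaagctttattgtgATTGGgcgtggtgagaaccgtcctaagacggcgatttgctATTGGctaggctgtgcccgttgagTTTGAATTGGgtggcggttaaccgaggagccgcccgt
Plk1: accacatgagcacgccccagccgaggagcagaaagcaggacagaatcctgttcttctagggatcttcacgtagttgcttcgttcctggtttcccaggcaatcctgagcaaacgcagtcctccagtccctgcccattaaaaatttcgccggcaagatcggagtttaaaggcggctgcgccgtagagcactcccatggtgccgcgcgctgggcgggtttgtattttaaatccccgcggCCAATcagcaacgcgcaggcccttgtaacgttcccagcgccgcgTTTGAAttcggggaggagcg
Aurka: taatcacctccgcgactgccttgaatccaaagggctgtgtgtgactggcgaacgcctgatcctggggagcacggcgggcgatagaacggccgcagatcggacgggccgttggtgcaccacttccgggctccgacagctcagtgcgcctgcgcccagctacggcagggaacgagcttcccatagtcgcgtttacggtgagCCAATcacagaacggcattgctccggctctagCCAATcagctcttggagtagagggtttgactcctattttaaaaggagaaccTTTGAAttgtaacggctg

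In the Cdca3 window the CHR core began at position 31 after the start, and CCAAT cores began at -104, -71 and -4, counted by the first letter of the match with the first transcribed base as 1. Plk1 had its CHR core at position 31 and a CCAAT core at -14. Aurka had its CHR core at position 33 with CCAAT cores at -51 and -19. The Cdca8 window held 4 CCAAT cores and a CHR core at position 14 that shares its last base with the CCAAT core at 19. Kif22 had CHR cores at -17 and -215. The Birc5 window held neither set of letters.

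The same layout recurred over the set. Of the 42 members, 35 had at least 1 window in the table, 37 windows in all. A CCAAT core was present in 31 of the 37 (83.8%), against 37.1% of 9146 windows of the genes tested on these arrays and 37.4% of all 32851 windows. A CHR core was present in 28 (75.7%), against 11.7% of tested genes and 17.9% of all windows. A CHR core beginning within the last 50 bases before the start or in the 50 bases after it was found in 25 (67.6%), against 2.86% and 4.94%. Both cores were present in 26 of the 37 windows (70.3%), against 4.59% of those of tested genes, and neither in 4. Beside them, the windows of 74 other mitosis genes from further lists held both cores in 34.9% of 83. Cdk1 and Kif23, whose brightest probes were not higher at day 11, also carried both, so the letters alone did not separate the genes by their change. A match of letters is a description of the window and not a measured binding site.

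**Figure D1:**
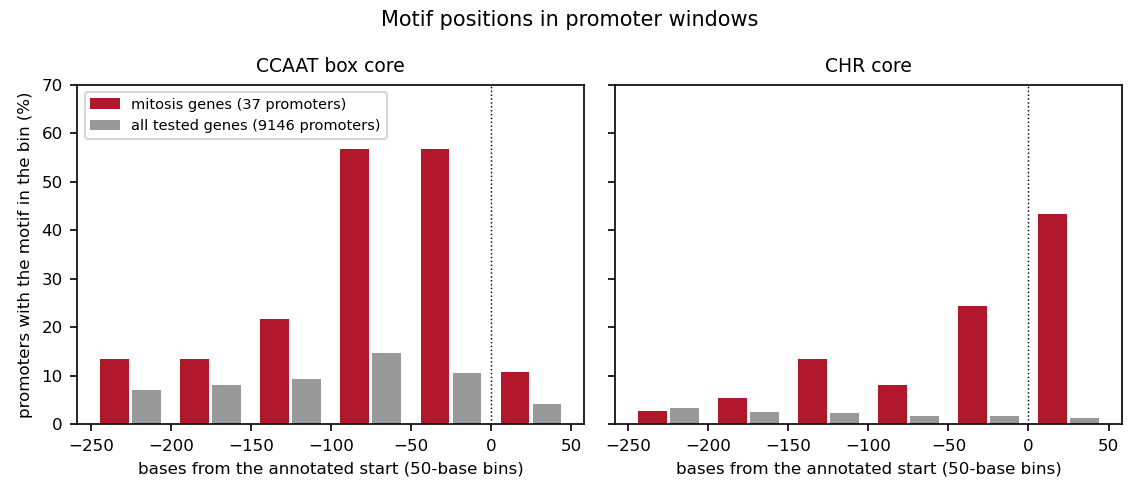
Share of promoter windows (%, y axis) with a CCAAT core (left) or a CHR core (right) beginning in each 50-base bin, by distance in bases from the annotated start (x axis), for 37 windows of mitosis genes (red) and 9146 windows of all tested genes (grey). CCAAT cores of mitosis genes were most frequent in the 2 bins just before the start, 56.8% each, and CHR cores in the first 50 bases after it, 43.2%.

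Gene expression was read as bead intensity, background-corrected, quantile normalized and given as log2 levels. Between 9606 and 17627 of 45281 probes were detected per array, at a detection p under 0.01. The 3 day 11 arrays had the higher median raw intensity, 115 to 151, against 80.8 to 107 at day 4 and 91.4 to 103 in PBS. Their lowest detected log2 level was 5.95 to 6.88, against 5.57 to 5.88 at day 4 and 5.71 to 6.50 in PBS, so detection was not equally strict on all arrays. All 12 FRC markers were tested and 11 of them, among them Pdpn, Ccl19 and Col1a1, were detected on all 9 arrays, while Pdgfrb was detected on 4. The sources do not spell out that the triplicates are separate animals, so p-values measure the spread between these arrays, which may be technical in part, and 3 arrays per group limit the precision.

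The mitosis genes lay near the detection limit in these cells. Of the 40 genes with a probe, 22 (55%) had a probe detected on at least 3 arrays and were tested, against 46.3% of all genes with a named probe. By brightest tested probe, none of the 22 was detected in a single group only, and 4 were detected on all 9 arrays. Some still needed the arrays of a given group to pass. Cks2, detected on 1 day 11, 3 day 4 and 0 PBS arrays, passed only with its day 4 arrays. At the brightest tested probe, 3 genes (Cdca3, Cenpf and Cks2) were detected on no PBS array. A gene dim in PBS could still enter through the tumour groups, so counts over these 22 describe them and are not support by themselves. The number of the 40 genes with a detected probe was 15, 29 and 15 on the day 11 arrays, 23, 20 and 17 on the day 4 arrays and 13, 13 and 16 on the PBS arrays. Day 11 replicate 2 stood above all others, and the groups overlapped.

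**Figure D2:**
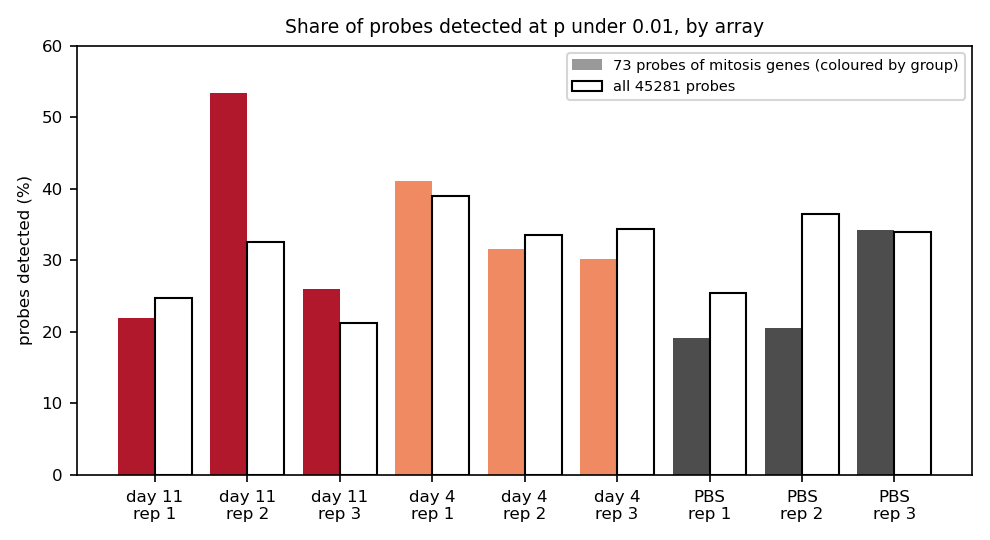
Share of probes detected (%, y axis) on each of the 9 arrays (x axis): filled bars for the 73 probes of mitosis genes, coloured by group, and open bars for all 45281 probes. On day 11 replicate 2, 53.4% of the mitosis probes were detected against 32.5% of all probes, and on PBS replicate 2 the shares were 20.5% and 36.4%. The groups overlapped: the shares were 21.9% and 24.8% on day 11 replicate 1, and 34.2% and 33.9% on PBS replicate 3.

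The 18 genes that were not tested include some of the usual markers of dividing cells. Ccnb2, Ube2c, Bub1, Nek2, Nuf2, Cenpe, Ect2 and Racgap1 were detected on 0 of 9 arrays. Among them Ube2c, the ubiquitin-conjugating enzyme of the anaphase-promoting complex, had a mean log2 level of 5.24 at day 11, 4.92 at day 4 and 4.72 in PBS, and the cyclin Ccnb2 had 4.87, 4.65 and 4.68. Top2a, the topoisomerase that untangles mitotic chromosomes, had a detected probe on 1 day 11 array, 1 day 4 array and 0 PBS arrays. Nusap1, Mad2l1 and Ckap2 were likewise detected on 1 day 11 array, 1 day 4 array and 0 PBS arrays. Hmmr and Ccna2 were detected on 1 day 11 array, and Aurkb on 1 day 4 array. Spc25 was detected on 1 day 11 array and 1 PBS array, and Kif2c and Ttk on 1 PBS array each. Levels at or below detection on nearly every array have no usable order between groups.

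The first comparison, day 11 of tumour drainage against PBS, asked how the genes stood in the later tumour-draining node. Most of the tested members were higher at day 11, led by the passenger complex genes Birc5 and Cdca8, by Plk1 and Cdca3 of mitotic entry and by the chromokinesin gene Kif22, each with a mean difference of about 1.9 to 2.9 on the log2 scale. No member passed limma's test over all 16577 probes at an adjusted p of 0.05 (0 higher, 0 lower), where 0.0113% of the 8819 tested genes were called higher and 0% lower. Before adjustment, 9 of the 22 had a p under 0.05 with a higher level and 0 with a lower one, against 6.18% and 4.07% of all genes. The median log2 change was 0.93 over the 22 and 0.05 over all tested genes, and 19 were above 0 and 3 below, against 54.1% of all genes above 0. In 8 of the 22, all day 11 arrays lay above all PBS arrays, against 10.9% of all genes, and in 0 they lay below, against 7.26%. In 9 of the 22 the log2 change was 1 or more, against 4.82% of all genes. The genes were listed with earlier results of these arrays known, so these counts are a description of them. In pooled RNA a larger share of dividing cells and more transcript per cell cannot be told apart.

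In the chromosomal passenger complex, which corrects chromosome attachment and directs cytokinesis, Birc5 encodes survivin. Its log2 levels were 7.76, 8.46 and 7.87 on the day 11 arrays, 6.19, 7.48 and 6.01 on the day 4 arrays and 4.68, 4.76 and 5.88 on the PBS arrays. The day 11 arrays lay above the other 6 without overlap, and the day 4 arrays above the PBS arrays, of which only replicate 3 was detected. The log2 change at day 11 against PBS was 2.92 ± 0.47 (SE, n = 3 per group; limma adjusted p = 0.194), with a PBS mean near background that leaves its size uncertain. Birc5 has 2 other tested probes, which gave 0.90 and 1.53. With a variance prior that follows intensity and is robust to outlying variances, the first probe passed (limma adjusted p = 0.0279). Over 21 alternatives its limma adjusted p ran from 0.0279 to 0.644.

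Cdca8 encodes borealin, the subunit that joins survivin to the complex. Its levels were 8.21, 8.76 and 8.80 at day 11, 8.0, 7.92 and 6.55 at day 4 and 6.11, 5.13 and 7.59 in PBS. PBS replicate 3 reached into the range of day 4 but stayed below all day 11 arrays. The log2 change was 2.32 ± 0.60 against PBS (limma adjusted p = 0.267). The other Cdca8 probe, not tested, disagreed, with means of 5.25 at day 11, 5.38 at day 4 and 6.16 in PBS. It was detected on 2 PBS arrays only. Incenp, the scaffold of the complex, was dimmer, with 6.03, 5.98 and 6.27 at day 11, 4.98, 5.97 and 4.61 at day 4 and 5.0, 6.15 and 4.87 in PBS, each group with 1 detected array. Aurkb, the kinase of the complex, was not tested.

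Among the genes of mitotic entry, Plk1 encodes the Polo kinase that drives centrosome maturation and exit from G2. It had log2 levels of 8.26, 8.80 and 8.67 at day 11, 7.66, 7.50 and 6.77 at day 4 and 7.92, 6.00 and 5.73 in PBS. All day 11 arrays were above the rest, and PBS replicate 1 was above every day 4 array. The change against PBS was 2.03 ± 0.53 (limma adjusted p = 0.282), and 2.71 without PBS replicate 1.

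Cdca3, which promotes entry by targeting the inhibitor kinase Wee1, was not detected on any PBS array at its tested probe. Its levels were 6.87, 7.67 and 8.04 at day 11, 6.05, 7.71 and 6.61 at day 4 and 5.10, 5.41 and 5.82 in PBS. Every tumour array exceeded every PBS array, and day 11 was at least 2.84-fold above PBS, where the dim group is set at the lowest detected signal of each array (limma adjusted p = 0.222). Aurka, the kinase of spindle poles, had 6.70, 7.40 and 7.11 at day 11, 4.90, 6.45 and 5.20 at day 4 and 5.18, 6.16 and 5.88 in PBS. Here the day 11 arrays stood alone, and day 4 overlapped PBS. Its change was 1.33 ± 0.44 against PBS (limma adjusted p = 0.356).

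The remaining entry genes did not share this pattern. Cks2, a small Cdk-binding subunit, had 5.95, 6.73 and 5.46 at day 11, 6.20, 6.68 and 6.05 at day 4 and 5.52, 5.21 and 5.03 in PBS, with 1, 3 and 0 arrays detected. With day 11 replicate 3 below PBS replicate 1 and 2 of the day 11 arrays undetected, no fold is given at day 11 (limma adjusted p = 0.480), and the highest group mean was at day 4. Its relative Cks1b had a change of 0.45 ± 0.39 and the kinase gene Pbk 0.90 ± 0.54, with overlapping groups. Pbk was detected on 1 array of each group. Cdk1, the kinase that triggers mitosis, went the other way at its tested probe, with 6.99, 6.68 and 6.26 at day 11, 7.32, 7.44 and 7.65 at day 4 and 7.22, 6.63 and 7.48 in PBS. Its change at day 11 was -0.47 ± 0.32 against PBS (limma adjusted p = 0.620). That probe was detected on 8 of 9 arrays. The probes of Cdk1 disagree: one of the 2 that were not tested had a mean of 5.88 at day 11, 5.31 at day 4 and 4.74 in PBS, highest at day 11, but was detected on 1 day 11 array only.

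Among the spindle genes, Kif22 encodes a kinesin that pushes chromosome arms towards the equator. Its levels were 7.07, 7.69 and 8.08 at day 11, 7.32, 7.54 and 6.85 at day 4 and 6.25, 6.16 and 4.61 in PBS. Both tumour groups lay above PBS without overlap and overlapped each other. The change at day 11 was 1.94 ± 0.47 against PBS (limma adjusted p = 0.250), and 1.41 without PBS replicate 3. Stmn1, the microtubule-destabilizing stathmin, was detected on all 9 arrays, with 8.42, 9.31 and 8.90 at day 11, 8.83, 8.33 and 8.35 at day 4 and 7.84, 7.57 and 8.08 in PBS. It was the best measured of the genes higher at day 11, with 1.05 ± 0.32 against PBS (limma adjusted p = 0.323). Tpx2, which activates Aurora A on spindle microtubules, had 6.54, 7.63 and 7.32 at day 11, 8.43, 7.55 and 6.42 at day 4 and 5.54, 5.53 and 6.79 in PBS, so that PBS replicate 3 overlapped both tumour groups. Its change was 1.21 ± 0.55 (limma adjusted p = 0.480). Kif11, the motor that separates spindle poles, ranged from 5.64 to 8.87 within PBS alone and had 0.40 ± 0.67, or -0.33 without PBS replicate 1.

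**Figure D3:**
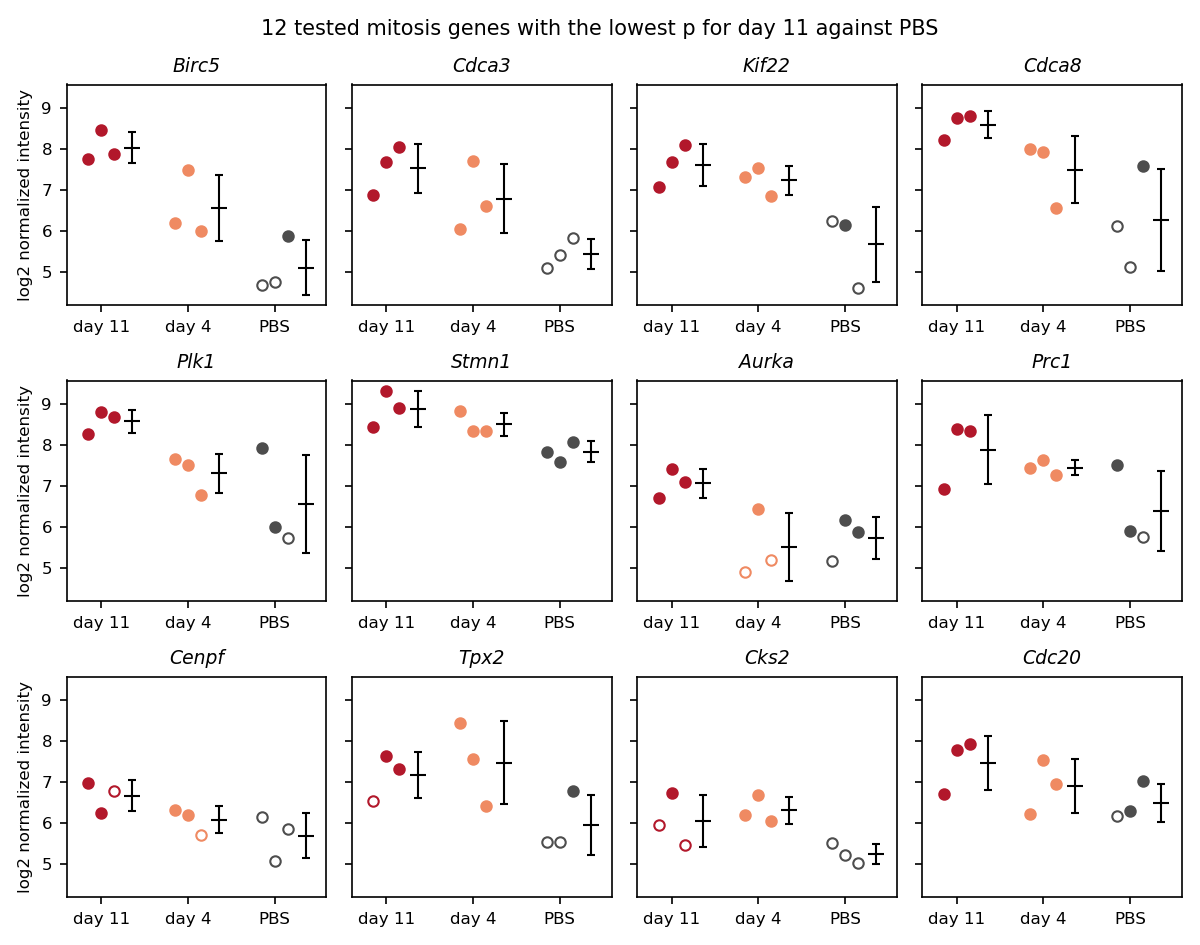
Log2 normalized intensity (y axis) of the 12 tested mitosis genes with the lowest p for day 11 against PBS, on 3 arrays each of day 11, day 4 and PBS (x axis). Filled points were detected at a p under 0.01 and open points were not; bars show the mean ± SD of each group. In Birc5, Cdca8, Plk1 and Aurka all day 11 points lie above all others, and in Cdca3, Kif22 and Stmn1 the points of both tumour groups lie above PBS.

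Genes of the spindle checkpoint and of chromosome separation had smaller differences. Cdc20, the activator of the anaphase-promoting complex, had 6.71, 7.78 and 7.92 at day 11, 6.22, 7.54 and 6.95 at day 4 and 6.17, 6.28 and 7.02 in PBS, a change of 0.98 ± 0.44 (limma adjusted p = 0.480). Its other tested probes gave -0.05 and 0.15. Bub1b, a checkpoint kinase, had 0.58 ± 0.38, and 0.79 at another probe. Each of these Bub1b probes was detected on 1 of 3 day 11 arrays, so their order is not usable. The kinetochore gene Cenpf, undetected on PBS arrays, stood at least 1.56-fold above them at day 11, where 2 of 3 arrays detected it (limma adjusted p = 0.392). Ndc80, which binds microtubules at the kinetochore, had 0.63 ± 0.58, detected on 2 day 11 arrays and 1 PBS array. Cenpa, the histone that marks centromeres, had 0.47 ± 0.49 at its brightest probe and -0.64 at the other.

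Among the cytokinesis genes, Prc1, which bundles the midzone microtubules, had 6.92, 8.40 and 8.34 at day 11, 7.44, 7.64 and 7.26 at day 4 and 7.52, 5.91 and 5.75 in PBS. PBS replicate 1 overlapped both tumour groups. The change at day 11 was 1.49 ± 0.53 (limma adjusted p = 0.378). Kif20a, the kinesin that carries the passenger complex to the midzone, was lower than in PBS, at -0.69 ± 0.47, with overlapping groups. It was detected on 1 day 11 array and 3 PBS arrays. Kif23, a subunit of the centralspindlin complex, differed between its probes: the brightest, near 9.5 in every group, gave -0.07 ± 0.26, and the other 2 gave 1.85 and 0.89 (limma p before adjustment 0.00199 and 0.0387, from the model fitted across all probes). Those 2 dimmer probes had PBS means of 5.11 and 5.41, and by the mean of its probes Kif23 had 0.89. Which probe reports the mitotic transcript was not tested.

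**Figure D4:**
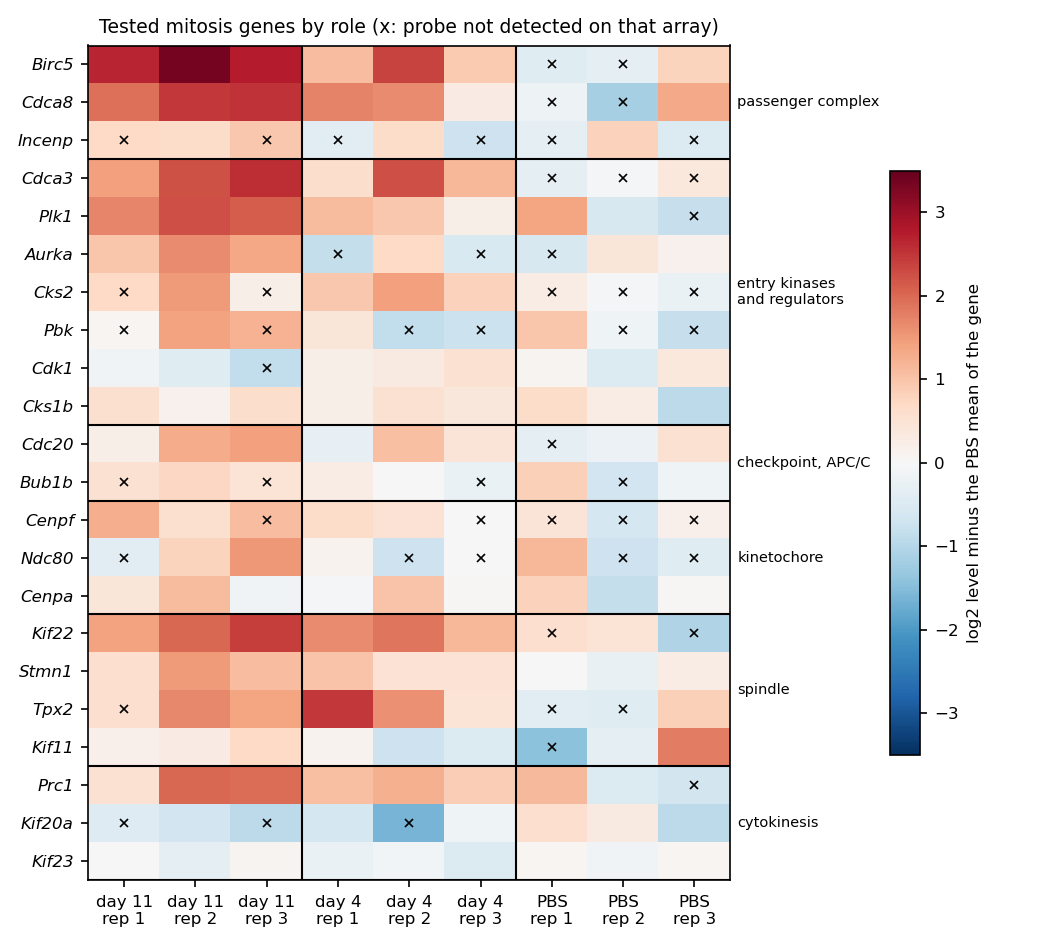
Log2 level of each of the 22 tested mitosis genes minus its own PBS mean (colour, blue lower and red higher), by array (columns; day 11, day 4 and PBS) and by role (rows). A cross marks an array on which the probe was not detected; Birc5, Cdca8, Cdca3, Plk1 and Kif22 are red on all 3 day 11 arrays, while Cdk1 and Kif20a are pale or blue there.

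The second comparison set day 4 against PBS. The differences at this earlier time were smaller for most genes. For Kif22, Birc5, Cks2, Cdca3 and Stmn1 the day 4 arrays all lay above all PBS arrays. Cks2 passed the detection filter only with its day 4 arrays, and its day 11 arrays overlapped PBS. The log2 change of Kif22 was 1.56 ± 0.47 (limma adjusted p = 0.456) and that of Birc5 1.46 ± 0.47 (limma adjusted p = 0.472). The 2 other tested Birc5 probes gave smaller changes, 0.18 and 0.72. At their tested probes Cks2 and Cdca3, not detected in PBS, were at least 1.22-fold and 1.70-fold higher (limma adjusted p = 0.506 for each). Without day 4 replicate 2, the day 4 array with the highest Birc5 and Cdca3 levels, those genes had 0.99 and 0.89. Tpx2 had its highest group mean at day 4, with 1.52 ± 0.55 against PBS. Prc1 had 1.05 ± 0.53, Cdca8 1.22 ± 0.60, Stmn1 0.67 ± 0.32, Plk1 0.76 ± 0.53 and Cdc20 0.41 ± 0.44. Aurka had -0.23 ± 0.44. Single arrays weighed on several of these values. Plk1 ran from 0.35 without PBS replicate 3 to 1.44 without PBS replicate 1, and Prc1 from 0.73 to 1.61 without the same arrays. Cdca8 ran from 0.64 without PBS replicate 2 to 1.87 without PBS replicate 3. Cdc20 ran from 0.09 without day 4 replicate 2 to 0.75 without day 4 replicate 1. Its other tested probes gave -1.21 and -0.0069 at day 4 against PBS. Without PBS replicate 3, Kif22 had 1.03.

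Over the 22 tested genes the median at day 4 was 0.38, against 0.04 over all tested genes, with 15 above 0 and 7 below, where 53.8% of all genes were above 0. None passed limma's test (0 of 8819 genes did, 0%), and before adjustment 5 of the 22 had a p under 0.05 with a higher level and 0 with a lower one, against 4.72% and 3.28% of all genes. In 5 of the 22 every day 4 array exceeded every PBS array, against 6.23% of all genes, and in 0 every one was below, against 4.31%. Cks2, which passed the detection filter only with its day 4 arrays, is in both counts of 5. A log2 change of 1 or more was seen in 7, against 3.74% of all genes. With single arrays left out, the median ran from 0.28 without PBS replicate 2 to 0.64 without PBS replicate 1.

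The third comparison, day 11 against day 4, equals the difference between the other 2, since both share the PBS arrays. Aurka differed by 1.56 ± 0.44 on the log2 scale (limma adjusted p = 0.594), Birc5 1.47 ± 0.47 (limma adjusted p = 0.664) and Plk1 1.27 ± 0.53 (limma adjusted p = 0.732), and in all 3 the day 11 arrays were above all day 4 arrays. Cdca8 (1.10 ± 0.60), Incenp (0.90 ± 0.43), Kif11 (0.75 ± 0.67) and Bub1b (0.57 ± 0.38) also had no overlap, but Incenp and Bub1b were each detected on 1 of 3 day 11 arrays, so their order is not usable. Cdca3 (0.74 ± 0.46), Cenpf (0.59 ± 0.36), Cdc20 (0.57 ± 0.44), Prc1 (0.44 ± 0.53), Kif22 (0.38 ± 0.47) and Stmn1 (0.38 ± 0.32) overlapped. Tpx2 and Cks2 had -0.30 ± 0.55 and -0.26 ± 0.36. The 2 other tested Birc5 probes gave 0.72 and 0.81. Aurka was detected on 1 of 3 day 4 arrays, which leaves the size of its change uncertain. Cdk1 had -0.83 ± 0.32 (limma adjusted p = 0.712), with every day 11 array below every day 4 array. The median over the 22 was 0.57, against 0.02 over all tested genes, with 19 above 0 and 3 below, where 51.5% of all genes were above 0. None passed, where 0.0113% of all genes were called higher and 0% lower. Before adjustment, 4 had a p under 0.05 with a higher level (Aurka, Birc5, Plk1 and Pbk) and 1 with a lower one (Cdk1), against 3.11% and 3.35% of all genes. Pbk was detected on 1 of 3 arrays in each of these groups, so its order is not usable. In 7 of the 22 every day 11 array exceeded every day 4 array, against 7.9% of all genes, with Incenp and Bub1b among the 7, and in 1 every one was below, against 7.6%. A log2 change of 1 or more was seen in 5, against 2.36% of all genes. A day is not given for the PBS nodes, so the part of time alone cannot be told apart from that of the tumour.

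**Figure D5:**
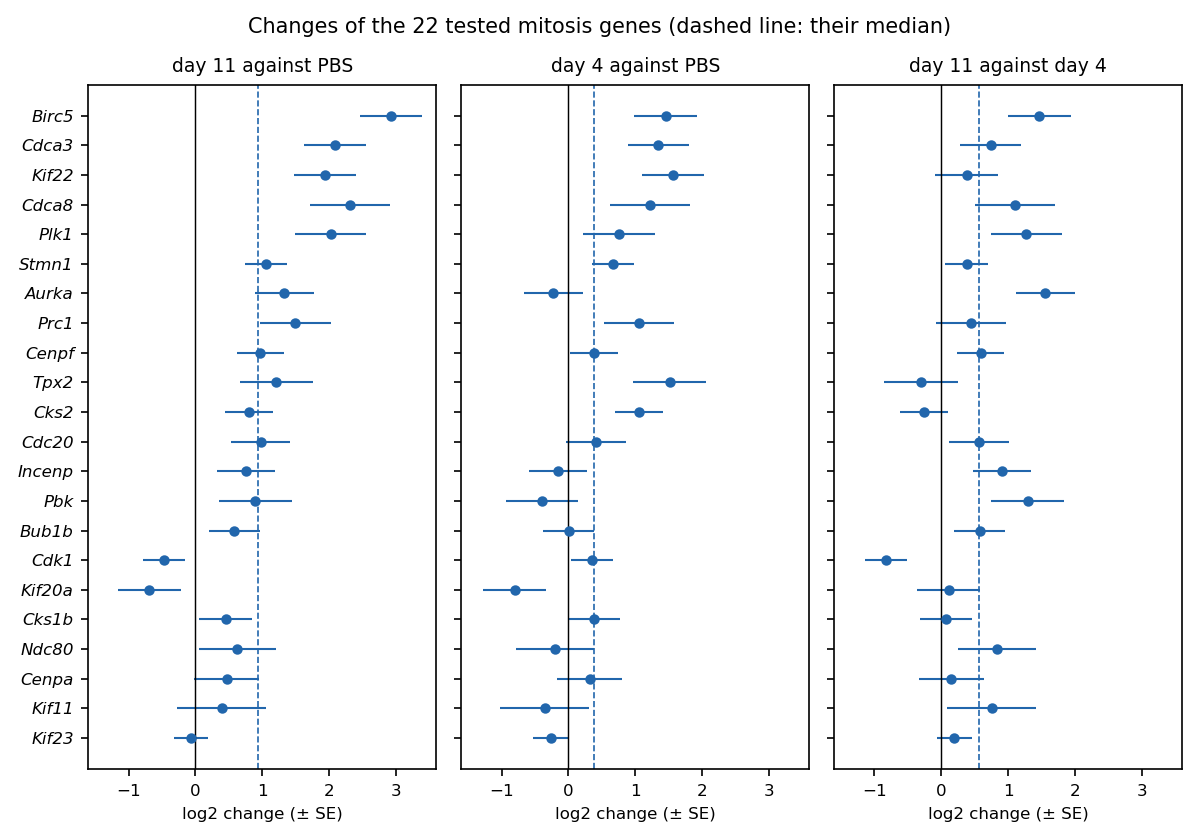
Log2 change ± SE (x axis, n = 3 arrays per group) of the 22 tested mitosis genes (y axis, ordered by p for day 11 against PBS) in the 3 comparisons, with the median of the 22 as a dashed line, at 0.93, 0.38 and 0.57. The first 5 genes have changes of 1.94 to 2.92 for day 11 against PBS, and Cdk1 and Kif20a lie left of 0 there.

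Other mitosis genes were taken from 5 further lists, of kinetochore, spindle, condensin, regulator and driver genes. Of 95 listed genes 90 had a named probe and 37 were tested. Their median log2 change at day 11 against PBS was 0.08, with 20 above 0 and 17 below, where 54.1% of all genes were above 0, and 0 passed limma's test. With a p under 0.05 before adjustment, 6 were higher and 1 lower, against 6.18% and 4.07% of all genes. The 3 with the lowest p were the spindle kinesin Kif15 (at least 2.07-fold higher; limma adjusted p = 0.236), the spindle pole gene Aspm (1.99 ± 0.55; limma adjusted p = 0.296) and the kinetochore gene Cenpk (at least 1.28-fold higher, detected on 2 of 3 day 11 arrays; limma adjusted p = 0.378). Kif15 and Cenpk were not detected in PBS. The lower gene was the abscission factor Cep55, undetected on the day 11 arrays and at least 1.25-fold lower there (limma adjusted p = 0.378). It is named after its values were seen, and by the mean of its probes its log2 change was 0.41. At day 4 against PBS the median of the 37 was 0.02, and at day 11 against day 4 it was 0.21 with 29 above 0, where 51.5% of all genes were. The difference between the 42 and these lists was not tested.

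Among the factors that drive these promoters, Foxm1 had 0.70 ± 0.57 at day 11 against PBS (limma adjusted p = 0.689). Mybl2, which encodes B-Myb, was not detected on any day 11 array. E2f2 had 1.37 ± 0.60, E2f1 -0.29 ± 0.62 and Lin54 -0.33 ± 0.46. Of these 5 tested drivers 2 were above 0 and 3 below, with a median of -0.29. Of 14 tested G1 cyclins, Cdks, their inhibitors and pocket proteins, 11 were above 0 at day 11 against PBS, against 54.1% of all genes. Their median was 0.23, against 0.05 over all tested genes. Of these genes 0 passed, where 0.0113% of all genes were called higher and 0% lower. The lowest p belonged to the pocket protein gene Rbl1 (0.98 ± 0.40; limma adjusted p = 0.435), the Cdk inhibitor Cdkn1c (1.03 ± 0.55) and Cdk2 (1.27 ± 0.73). Without PBS replicate 1, Cdkn1c had 0.35 and Cdk2 0.22, and without PBS replicate 2 Rbl1 had 0.60.

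Transcripts of other cells that may divide in a draining node were also on these arrays. The 4 tested of 8 listed plasma cell markers had a mean log2 level of 7.34 to 7.96 on the day 11 arrays, 6.40 to 6.90 at day 4 and 6.34 to 6.47 in PBS. Ighg1 carried most of this difference: its log2 levels averaged 9.40 at day 11, 4.97 at day 4 and 4.97 in PBS, while the changes at day 11 against PBS were 0.64 for Sdc1, 0.50 for Xbp1 and -0.43 for Jchain. The antibody gene Ighg1, the 1 gene that passed the test at day 11 against PBS, was detected on 3 day 11 arrays and on no other array, Mzb1 on 2 day 11 arrays, and Prdm1 on 0 day 11 arrays and 1 PBS array. The 5 tested of 10 B and germinal centre cell markers had a mean of 7.52 to 8.04 at day 11, 7.24 to 7.76 at day 4 and 7.19 to 7.99 in PBS, with Cd79b, Bcl6 and Fcer2a detected on all 9 arrays, Ms4a1 on 1 and Pax5 on none. The 6 tested of 10 T cell markers had 6.19 to 6.98, 5.76 to 6.32 and 6.57 to 6.76 in the same groups, and the 7 tested of 12 myeloid markers 7.78 to 8.80, 7.35 to 8.06 and 7.94 to 8.51, with Cd8b1 of the T cell list and Lyz2, Tyrobp, Aif1 and Laptm5 of the myeloid list detected on all 9 arrays, and Cd5 and Itgam on none. The 3 tested of 9 endothelial markers had 6.24 to 6.46, 5.94 to 6.17 and 5.53 to 6.62, with Tek detected on 8 arrays and Cdh5, Kdr and Lyve1 on none. Of 7 melanocyte lineage markers, 5 were detected on no array, and Mitf on all 9. The 12 FRC markers had 10.47 to 10.66, 10.41 to 10.59 and 10.33 to 10.52 on the day 11, day 4 and PBS arrays. The mean over the 22 mitosis genes was 7.13 to 7.61, 6.63 to 7.09 and 6.19 to 6.65. The part of these other cells in the mitosis signal was not tested.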

How the data were processed

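FRC RNA of 9 samples was amplified as whole transcriptome, labelled with biotin and hybridized to Illumina bead arrays, per the labels' protocols. The deposited raw table held an intensity per probe on the linear scale, not yet normalized, as its deposited headers and values show. It also held a detection p-value for each intensity, per the file headers. The authors' processed intensities, used as an alternative, share 1 distribution over the 9 columns. The deposited processing note names lumi, a variance-stabilizing transformation, quantile normalization and limma.

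Here neqc of limma 3.58.1 (R 4.3.3; offset 16) gave log2 levels. Probes with detection p under 0.01 on at least 3 of 9 arrays were tested with lmFit and eBayes, all 3 groups sharing the spread, adjusted by Benjamini-Hochberg over 16577 probes at 0.05. Probe symbols came from the platform annotation, updated through RefSeq (GRCm38.p6): 34885 probes had 1 symbol, 18 several, and 10378 are unnamed here. A gene is its brightest tested probe. The text names every tested member, with all array values for most of the 12 of lowest p at day 11; the members and lists were chosen with earlier results of these data known. The fit was checked on simulated data. Alternatives were background correction, scaling, filters, variance prior, array weights, replicate block, probe rule, the 2 groups alone and leaving out each array. Same-numbered arrays did not deviate together (correlations -0.05 to 0.06), so the numbers were not used as pairs. No slide was given, so slide was not tested.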

Additional observations from a re-analysis of the deposited data

Results flagged for a closer look

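Cdk1 was flagged because its day 11 and day 4 arrays lay on opposite sides of the PBS mean. All 3 day 11 arrays were below it and all 3 day 4 arrays above it, and the log2 difference of day 11 against day 4 was -0.83 ± 0.32 (limma adjusted p = 0.712). The PBS arrays, at 7.22, 6.63 and 7.48, spanned much of this range. This is 1 probe, and another Cdk1 probe, detected on 1 day 11 array only, had means of 5.88 at day 11, 5.31 at day 4 and 4.74 in PBS.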

How the results depend on the processing

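Under 21 alternatives no tested mitosis gene passed in any comparison, with 1 exception. Birc5 was the 1 gene called for day 11 against PBS with a variance prior that follows intensity and is robust to outlying variances. The median for day 11 against PBS, 0.93, was 0.50 with no background correction, 0.62 with an offset of 50, 0.51 with the authors' processed values and 0.58 over 40 genes with no filter on dim probes (33 above 0). Leaving out each array gave medians of 0.82 to 1.21 for day 11 against PBS, 0.28 to 0.64 for day 4 against PBS and 0.41 to 0.75 for day 11 against day 4, with 0 genes called each time. With a replicate block 0 genes were called in each comparison. The count of genes higher at an unadjusted p under 0.05 for day 4 against PBS was 3 without day 4 replicate 2. For day 11 against day 4 it was 7 in a fit of those 2 groups alone and 2 without day 4 replicate 3, day 11 replicate 2 or day 11 replicate 3. Of 1126 values of named genes under the alternatives, 1115 kept their direction. The mean of a gene's probes turned Cenpa to -0.0872, Kif23 to 0.89 and Cep55 to 0.41 for day 11 against PBS, and Cdc20 to -0.27 for day 4 against PBS. Leaving out each array in turn turned 7 values, in 6 comparisons of a gene. For day 11 against PBS, Kif11 ran from -0.33 (without PBS replicate 1) to 1.29, Cks1b from -0.0038 (without PBS replicate 3) to 0.77 and Kif23 from -0.15 to 0.0499 (without day 11 replicate 2). For day 4 against PBS, Aurka ran from -0.69 to 0.0818 (without day 4 replicate 1). For day 11 against day 4, Tpx2 ran from -0.83 to 0.18 (without day 4 replicate 1), also above 0 without day 11 replicate 1, and Cks2 from -0.60 to 0.0327 (without day 11 replicate 3). The causes were not tested. With signals this near background, the sizes of changes are uncertain.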
